A study of Mus musculus with 7 samples.

Results

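The genes described here are 40 genes of ribosome biogenesis and MYC-driven growth, chosen by name for their function: the MYC family and its partner Max, nucleolar proteins that process and modify ribosomal RNA, assembly factors of both ribosomal subunits, and RNA polymerase I with its factors. Of these 40, 38 had a probe set annotated with their symbol alone, among 19938 genes tested. Npm3 and Noc2l were not analysed here. The data came from 7 Affymetrix Mouse Gene 1.0 ST arrays, each hybridised with total RNA from 1 sample. Of the arrays, 6 held B16F10, a pigmented mouse melanoma line: the parental population and clone A1, both labelled PECAM1-, and clones A2, A3, A4 and A5, labelled PECAM1+. PECAM1, also called CD31, mediates adhesion between endothelial cells. The last array held mouse dermal endothelial cells (MDEC), which were grown in a medium with endothelial growth supplement, unlike the B16F10 cultures. Each clone, the parental population and MDEC were represented by 1 array, and the labels did not say how the clones were obtained or whether they were separate isolates. P-values therefore reflect the spread among these arrays alone, and that spread may be technical.

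Ribosomal RNA is transcribed by RNA polymerase I in the nucleolus, where small nucleolar ribonucleoproteins (snoRNPs) modify it and large sets of assembly factors cut, fold and package it into the small and large subunits. MYC, paired with MAX, binds E-box sequences (CACGTG) and raises many genes of this pathway, so their output rises with cell growth. In melanoma, as in other tumours, MYC and nucleolar activity are commonly high.

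Clone A1 carried lower levels of most of these genes than any other B16F10 array. Its level was below those of parental cells and of all 4 PECAM1+ clones for 32 of the 38 measured genes, where the same held for 28.9% of all genes tested. It was above all 5 other arrays for 0 of the 38, against 26.4% of all genes. Over the 38 genes, the median difference of clone A1 from the PECAM1+ clone mean was -0.65 log2 units, and 0.00 over all genes. Of the 38 differences 34 were negative, against 51.5% over all genes. Parental cells, which share the PECAM1- label with clone A1, had a median difference of 0.08. Across arrays, the mean log2 value of the 38 genes was 9.04 in clone A1, 9.79 in parental cells, 9.82 in A2, 9.72 in A3, 9.55 in A4, 9.72 in A5 and 9.43 in MDEC. Array medians over all probe sets lay between 6.12 and 6.18, with 6.17 in clone A1.

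**Figure D1:**
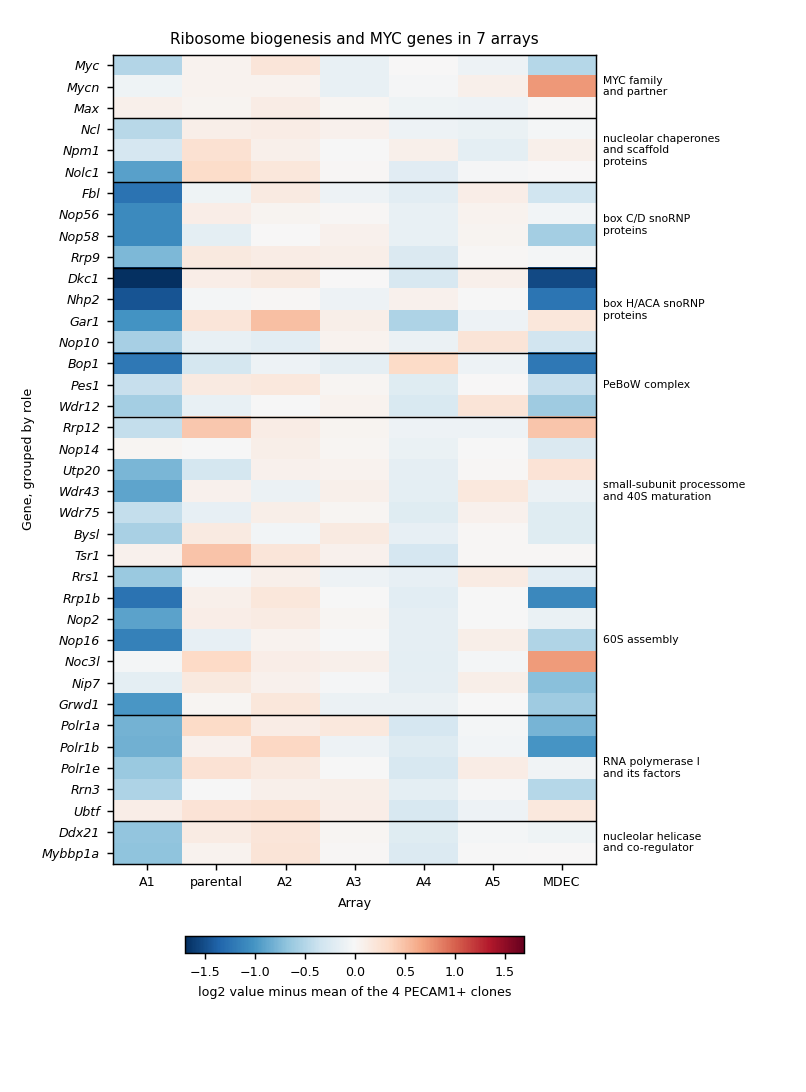
Log2 value of each of the 38 measured genes (rows, grouped by role) in each of the 7 arrays (columns), minus the mean of the 4 PECAM1+ clones; blue is lower and red is higher. The column of clone A1 is blue for most genes, with Dkc1 lowest at -1.69, while parental cells lie close to the clones and MDEC show both colours.

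In the limma fit of clone A1 against the 4 PECAM1+ clones, 15 of the 38 genes passed as lower (Benjamini-Hochberg adjusted p below 0.05 over all genes), where 9.33% of all genes tested passed in that direction. None of the 38 passed as higher, where 11.2% of all genes did. At an unadjusted p below 0.05, 28 of the 38 were lower and 0 higher, where 16.7% of all genes were lower and 34.2% differed in either direction. As clone A1 is 1 array, it was taken to vary like the 4 clones. At least 2-fold below the mean of the clones, and below each of them, were 9 of the 38 genes, against 3.32% of all genes. The number passing depended on which clones set the spread: it was 4 without clone A3 and also 4 without clone A5, while the share of all genes passing as lower was 4.95% and 5.01% in those fits. With quantile normalization it was 25, against 9.74% of all genes. It was 26 when genes with a mean level below the median were left out before testing, which kept 37 of the 38, and 16.5% of the remaining genes then passed as lower.

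**Figure D2:**
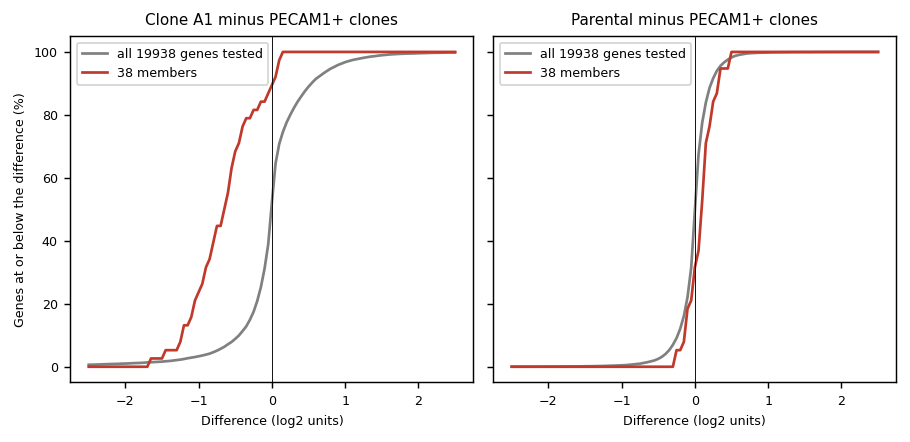
Cumulative share of genes (y axis, percent) at or below each log2 difference (x axis) for clone A1 (left) and parental cells (right), each minus the mean of the same 4 PECAM1+ clones, for the 38 genes and for all 19938 genes tested. In the left panel the line of the 38 genes lies to the left of that of all genes, with medians of -0.65 and 0.00; in the right panel the medians are 0.08 and 0.00.

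The box H/ACA snoRNP converts uridine to pseudouridine in ribosomal RNA and also stabilises telomerase RNA. Of its 4 measured genes 2 passed as lower in clone A1, with a median difference of -1.24 over the 4. Dkc1 encodes dyskerin, its catalytic subunit, and was at 8.34 in clone A1, 10.14 in parental cells, 10.20, 10.04, 9.77 and 10.12 in clones A2 to A5, and 8.50 in MDEC. The 5 other B16F10 arrays lay between 9.77 and 10.20 and did not overlap clone A1. Clone A1 lay -1.69 ± 0.19 (SE) log2 units from the clones, or 3.23-fold lower (limma adjusted p = 0.0115). Nhp2, a core subunit of the same particle, was at 8.74 in clone A1, 10.18 in parental cells, 10.23, 10.12, 10.28 and 10.20 in A2 to A5 and 8.98 in MDEC. Its difference was -1.47 ± 0.08 (limma adjusted p = 0.00345), with the smallest spread between the clones of all 38 genes (SD 0.07, n = 4). Gar1, the third core subunit, was also lowest in clone A1, at 9.34 against 10.55 in parental cells and 10.86, 10.45, 9.83 and 10.26 in A2 to A5. The clones differed widely for Gar1 (SD 0.43, n = 4, the widest of the 38), and its difference of -1.01 ± 0.42 did not pass (limma adjusted p = 0.187). Nop10, the smallest subunit, differed by -0.56 ± 0.17 and did not pass either (limma adjusted p = 0.105).

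All 4 listed genes of box C/D snoRNP proteins passed as lower in clone A1. These snoRNPs add methyl groups to ribosomal RNA and include the U3 particle needed for the first cuts. Fbl encodes fibrillarin, the methyltransferase. Its level was 8.82 in clone A1, 10.00 in parental cells, 10.22, 9.98, 9.90 and 10.18 in A2 to A5 and 9.74 in MDEC, a difference of -1.25 ± 0.16 (limma adjusted p = 0.0145). A second probe set annotated with Fbl differed by -0.92, so both probe sets were lowest in clone A1. The scaffold gene Nop56 stood at 10.48 in clone A1, 11.66 in parental cells, 11.60, 11.57, 11.42 and 11.61 in A2 to A5 and 11.50 in MDEC (-1.07 ± 0.09, limma adjusted p = 0.00696). Its partner Nop58 stood at 8.71 in clone A1, 9.62 in parental cells, 9.79, 9.86, 9.66 and 9.84 in A2 to A5 and 9.21 in MDEC (-1.08 ± 0.10, limma adjusted p = 0.00772). Both scaffold genes were thus low in clone A1 alone among the B16F10 arrays, with no overlap. Rrp9, a protein specific to U3, lay just inside the threshold at -0.76 ± 0.17 (limma adjusted p = 0.0496).

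**Figure D3:**
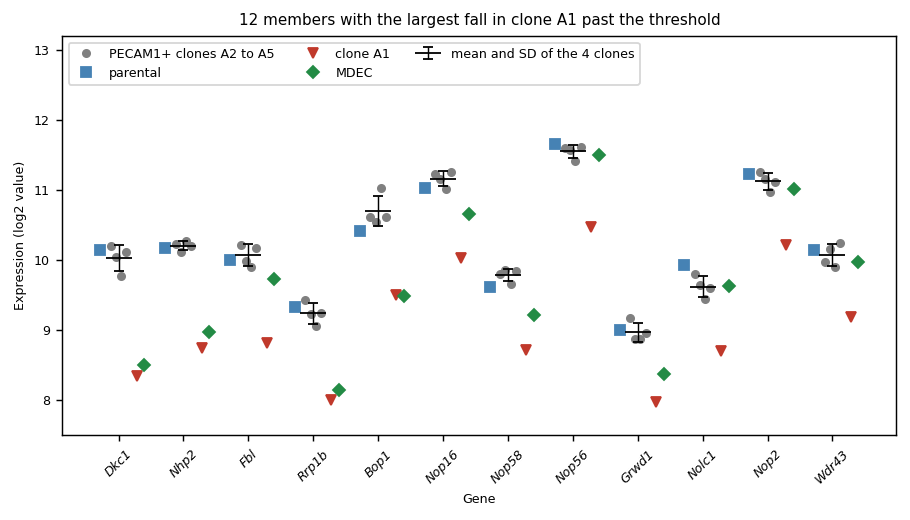
Log2 value (y axis) of the 12 genes with the largest negative differences of clone A1 past the limma threshold. Grey points are clones A2 to A5 with their mean and SD (n = 4), squares parental cells, triangles clone A1 and diamonds MDEC (1 array each); the triangle lies below the grey points and the square for every gene shown.

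Of 7 measured factors of the large (60S) subunit, 5 passed as lower in clone A1, with a median difference of -0.91 over the 7. Rrp1b, a nucleolar protein that also takes part in splicing, had 7.99 in clone A1, 9.33 in parental cells, 9.43, 9.23, 9.06 and 9.24 in A2 to A5 and 8.15 in MDEC (-1.25 ± 0.15, limma adjusted p = 0.0139). Nop16, a known MYC target, had 10.02 in clone A1, 11.03 in parental cells, 11.22, 11.15, 11.01 and 11.26 in A2 to A5 and 10.65 in MDEC (-1.14 ± 0.11, limma adjusted p = 0.00882). Both genes were lowest in clone A1, with MDEC between it and the other B16F10 arrays. Grwd1, a WD-repeat chaperone for a ribosomal protein, was at 7.98 in clone A1, 9.00 in parental cells, 9.16, 8.87, 8.87 and 8.96 in A2 to A5 and 8.36 in MDEC (-0.99 ± 0.14, limma adjusted p = 0.0192). Nop2, which methylates a cytosine of the large ribosomal RNA, was at 10.22 in clone A1, 11.24 in parental cells, 11.26, 11.15, 10.97 and 11.12 in A2 to A5 and 11.01 in MDEC (-0.91 ± 0.12, limma adjusted p = 0.0174). For Nop2 the MDEC array lay within the range of the B16F10 arrays, unlike clone A1, which was lower than the rest. Rrs1 passed at -0.62 ± 0.13 (limma adjusted p = 0.0462). Noc3l and Nip7 did not pass, at -0.03 ± 0.13 and -0.16 ± 0.12. Nip7 was at 8.57 in both clone A1 and clone A4, so that the groups were separated by less than a hundredth of a log2 unit.

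In the PeBoW complex, a trimer that processes the large-subunit RNA, Bop1 passed and its partners did not. Bop1 was at 9.50 in clone A1, 10.41 in parental cells, 10.62, 10.55, 11.02 and 10.61 in A2 to A5 and 9.49 in MDEC (-1.20 ± 0.21, limma adjusted p = 0.0309). Clone A1 and MDEC held nearly the same value, below all other arrays, and clone A4 the highest. Pes1 differed by -0.39 ± 0.16 and Wdr12 by -0.57 ± 0.20 (limma adjusted p = 0.184 and 0.136), though both were lowest of the B16F10 arrays in clone A1. A second Wdr12 probe set differed by -0.77.

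The small-subunit (40S) factors were split. Of 7, Wdr43 and Utp20 passed as lower in clone A1. Wdr43, a component of the processome that assembles on the nascent transcript, was at 9.18 in clone A1, 10.14 in parental cells, 9.97, 10.16, 9.90 and 10.25 in A2 to A5 and 9.97 in MDEC (-0.89 ± 0.16, limma adjusted p = 0.0316). Utp20, a large scaffold of the same assembly, differed by -0.77 ± 0.11 (limma adjusted p = 0.0187). Bysl (bystin), needed for late maturation, lay just outside the threshold at -0.55 ± 0.13 (limma adjusted p = 0.0531), and Wdr75 and Rrp12 differed by -0.41 each. Nop14 and Tsr1 stood near the clones, at 0.03 ± 0.10 and 0.07 ± 0.21, and their values in clone A1 (9.42 and 9.26) lay inside the range of the other B16F10 arrays.

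Among the nucleolar scaffold proteins, Nolc1 (Nopp140), which carries snoRNPs, passed as lower. It was at 8.70 in clone A1, 9.93 in parental cells, 9.81, 9.64, 9.44 and 9.60 in A2 to A5 and 9.63 in MDEC (-0.92 ± 0.15, limma adjusted p = 0.0272). The abundant nucleolar proteins nucleolin (Ncl) and nucleophosmin (Npm1) differed by -0.47 ± 0.12 and -0.28 ± 0.12 and did not pass (limma adjusted p = 0.0694 and 0.205). The RNA helicase gene Ddx21 and Mybbp1a, a nucleolar binding partner of transcription factors, differed by -0.67 ± 0.17 and -0.68 ± 0.18 (limma adjusted p = 0.0664 and 0.0740). All 4 were nonetheless lowest of the 6 B16F10 arrays in clone A1.

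None of the 5 RNA polymerase I genes passed, although 4 of them were lowest in clone A1. The largest subunits, Polr1a and Polr1b, differed by -0.80 ± 0.21 and -0.81 ± 0.24, and Polr1e by -0.63 ± 0.19 (limma adjusted p from 0.0707 to 0.102). Rrn3 (TIF-IA), which joins the polymerase to the promoter and responds to growth signals, differed by -0.52 ± 0.12 (limma adjusted p = 0.0608). Ubtf, which binds the ribosomal gene repeats, differed by 0.11 ± 0.23 and overlapped the other arrays, with 9.91 in clone A1, 10.03 in parental cells and 10.06, 9.91, 9.53 and 9.71 in A2 to A5.

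Myc itself was at 10.66 in clone A1, 11.21 in parental cells, 11.36, 11.03, 11.17 and 11.07 in A2 to A5 and 10.68 in MDEC. Clone A1 was thus the lowest B16F10 array and close to MDEC, yet the difference of -0.50 ± 0.15, or 1.41-fold, did not pass (limma adjusted p = 0.0930). The paralogue Mycn was at 5.85 in clone A1, 5.98 in parental cells, 5.98, 5.80, 5.90 and 6.01 in A2 to A5 and 6.66 in MDEC, which was the highest array. The MYC partner Max was at 9.50 in clone A1, 9.46 in parental cells, 9.55, 9.45, 9.34 and 9.33 in A2 to A5 and 9.45 in MDEC. Neither gene separated clone A1 from the other arrays, and they differed from the clones by -0.07 ± 0.09 and 0.08 ± 0.11 (limma adjusted p = 0.732 and 0.740).

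The E-box bound by MYC and MAX was looked for in RefSeq promoter windows of GRCm38.p6, which run from 250 bases before to 50 after each start and were found for 34 of the 40 genes. The letters searched were CACGTG, which read the same on both strands. They occurred in 9 of the 43 windows of these genes (20.9%) and in 7.15% of all 32851 windows. Of the 43 windows of these genes, 6 held the E-box in the 50 bases after the start, against 1.08% of all windows. That position was looked at after the matches were seen. Within the 250 bases before the start, the share was 4.65% for these genes and 6.02% for all windows. Some genes have several windows that overlap, and a match describes the letters only. The 4 genes with the largest differences of clone A1 among those with an E-box were Grwd1, Nop2, Wdr43 and Utp20, all of which passed as lower. Their sites are shown 5′ to 3′ on the strand of the gene, in 30 bases each, with the E-box in capitals, to let its flanks and place be compared. The first base of the E-box was at position 35 from the start in Grwd1 (chr7:45830740-45830769, minus strand), at -60 in Nop2 (chr6:125131811-125131840, plus strand), at 18 in Wdr43 (chr17:71616220-71616249, plus strand) and at 38 in Utp20 (chr10:88826765-88826794, minus strand).
Grwd1: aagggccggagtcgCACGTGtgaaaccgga
Nop2: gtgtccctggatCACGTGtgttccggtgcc
Wdr43: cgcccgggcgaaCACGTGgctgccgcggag
Utp20: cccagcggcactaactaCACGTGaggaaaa

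Nop2 was the one of these 4 with its E-box before the start. The 250 bases before its start (chr6:125131633-125131882, plus strand) are given whole, to show the GC-rich sequence around the E-box.
Nop2 upstream: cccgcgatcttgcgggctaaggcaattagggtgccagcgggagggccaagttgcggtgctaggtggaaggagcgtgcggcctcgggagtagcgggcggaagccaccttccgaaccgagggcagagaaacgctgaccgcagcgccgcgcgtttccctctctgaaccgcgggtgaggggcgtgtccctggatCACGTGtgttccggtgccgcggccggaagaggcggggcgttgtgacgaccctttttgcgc

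Genes with an E-box did not all pass as lower in clone A1. Mybbp1a, Rrn3, Pes1, Tsr1 and Max also held an E-box and did not pass. For Mybbp1a, Rrn3 and Pes1, clone A1 was nonetheless the lowest B16F10 array, with differences of -0.68, -0.52 and -0.39. Tsr1 and Max, which held an E-box at positions 25 and -3, differed by 0.07 and 0.08. Dkc1 and Nhp2, with the largest differences, had no CACGTG in their windows. Whether the E-box bears on these levels was not tested.

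Other genes of the pathway were taken from 7 further lists, whose counts in clone A1 stand against 9.33% of all genes passing as lower and 11.2% as higher. In these lists, 0 genes passed between parental cells and the PECAM1+ clones or by PECAM1 status. The list of MYC-regulated growth and metabolism genes had negative differences in clone A1 for all 34 measured members (median -0.83), and 23 of the 34 passed as lower. Ccnd1 (cyclin D1) differed by -2.24 ± 0.23, Shmt1, a folate enzyme, by -2.17 ± 0.29, and Umps and Ppat, of pyrimidine and purine synthesis, by -1.97 ± 0.20 and -1.73 ± 0.15 (limma adjusted p from 0.00723 to 0.0167). Assembly factors outside the 40 genes were taken by subunit. Of 39 other small-subunit factors 9 passed as lower and 0 as higher (median -0.21), with Noc4l at -1.0 ± 0.19 and Utp6 at -0.77 ± 0.14 among them, while Tcof1 (treacle) at -1.02 ± 0.28 and Heatr1 at -0.83 ± 0.27 did not pass. Of 46 other large-subunit factors 9 passed as lower and 2 as higher (median -0.24). Among those lower were Rpf2 at -0.81 ± 0.10, Ddx51 at -0.74 ± 0.10 and Ddx18 at -0.73 ± 0.14, while Nifk at -0.74 ± 0.21 did not pass. Rpf2 was also low in parental cells, at 7.02, against 6.83 in clone A1 and 7.68, 7.61, 7.54 and 7.76 in A2 to A5. For Ddx51 and Ddx18, parental cells lay within the range of the PECAM1+ clones.

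Of 35 other RNA polymerase I and III genes, 5 passed as lower and 4 as higher (median -0.10), which is near the 9.33% and 11.2% of all genes. Gtf3c6, of the polymerase III factor TFIIIC, differed by -1.23 ± 0.14 and Polr2f, a subunit shared by the polymerases, by -0.76 ± 0.10. On the higher side were Kdm2a at 1.36 ± 0.08 and Sirt7 at 1.26 ± 0.17, which encode a histone demethylase and a deacetylase that act at ribosomal DNA. Cytosolic ribosomal proteins passed as lower for 15 of 56 measured genes and as higher for 0 (median -0.18), with Rps27l at -0.97 ± 0.09, Rps21 at -0.77 ± 0.13 and Rps13 at -0.73 ± 0.11, and Rps3a1 at -0.65 ± 0.16 did not pass. Many ribosomal protein genes have near-identical pseudogenes. Of the 86 symbols listed, which include second names of some genes, 30 had no probe set of their own. The values of this list are therefore uncertain.

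In the MYC network beyond the 40 genes, 2 of 15 passed as lower and 1 as higher (median 0.11), also near the shares of all genes. Mxd3, a MAX-binding repressor linked to the S phase, was at 6.64 in clone A1, against a clone mean of 7.96 ± 0.04 (SD, n = 4), a difference of -1.33 ± 0.06 (limma adjusted p = 0.00278). The helicase gene Ruvbl2, a MYC cofactor, differed by -0.95 ± 0.18 and its partner Ruvbl1 by -0.48 ± 0.18, which did not pass. The cofactor gene Trrap was 0.63 ± 0.05 higher. Cell cycle genes moved with clone A1 too. All 23 measured passed as lower, with a median of -3.16, and their mean log2 value was 7.56 in clone A1, 8.38 in MDEC and from 10.54 to 10.75 over the other arrays. Ccna2, Plk1, Rrm2 and Bub1 differed by -4.47, -4.31, -3.98 and -3.96. Their part in the lower level of ribosome biogenesis genes was not tested. In bulk samples, fewer cells that express a gene and less RNA per cell cannot be told apart.

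**Figure D4:**
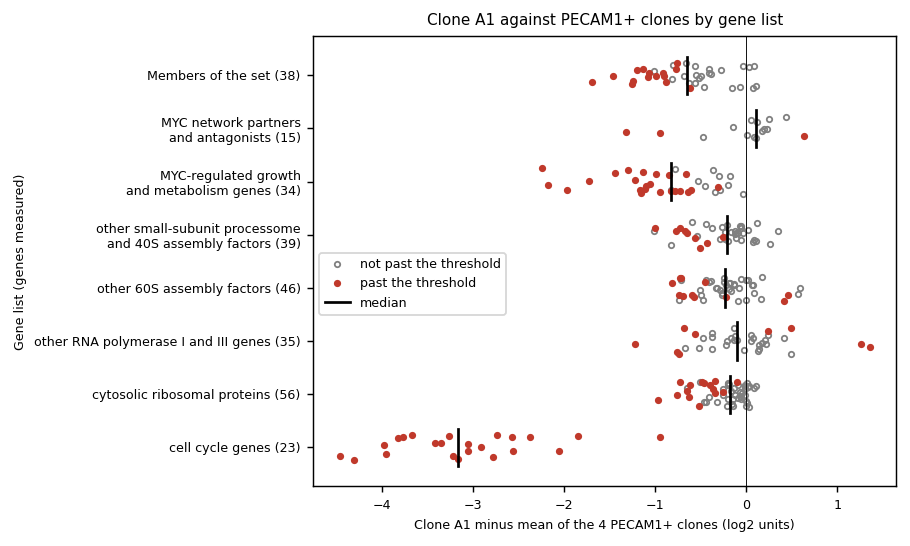
Difference of clone A1 from the mean of the 4 PECAM1+ clones (x axis, log2 units) for each measured gene of the 40-gene set and of 7 other lists (y axis, number measured in brackets). Filled points passed the limma threshold and bars are medians, which run from -3.16 for cell cycle genes to 0.11 for MYC network partners and antagonists.

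Markers showed the B16F10 arrays to be melanocytic, including clone A1. The mean log2 value of 8 melanocytic markers was 11.95 in clone A1, from 11.65 to 12.21 over the other B16F10 arrays, and 5.93 in MDEC, and 0 of the 8 passed in clone A1. Endothelial markers averaged 10.8 in MDEC and 4.84 in clone A1, where Tie1 was the 1 of 8 to pass (-0.26 ± 0.03). Of 6 leukocyte markers 1 passed in clone A1, the lysosomal gene Cd68 (2.0 ± 0.09), and of 8 fibroblast and mural markers 1, Col1a2 (-0.72 ± 0.15). The summed linear level of the leukocyte list was 1275 in clone A1, and ran from 402 to 523 over the other B16F10 arrays. Cd68, at 10.07 in clone A1, carried that sum. The other 5 leukocyte markers differed by -0.32 (Laptm5) to 0.02 (Itgam), and 4 of the 6 were lower in clone A1. The part of these markers in the result was not tested.

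Clone A1 also differed from parental cells directly. In a fit that held both and the 4 clones, chosen after the values were seen, 11 of the 38 genes passed as lower in clone A1, against 6.52% of all genes tested, and 0 as higher, against 7.83%. The median difference was -0.77, and 36 of the 38 were lower, against 51.9% of all genes. Dkc1 differed by -1.80, Nhp2 by -1.44, Rrp1b by -1.34 and Nolc1 by -1.23 (limma adjusted p from 0.00706 to 0.0313). Rrp12, which exports both subunits from the nucleus, passed here at -0.87 (limma adjusted p = 0.0303), with 7.28 in clone A1, 8.15 in parental cells and 7.81, 7.73, 7.60 and 7.60 in A2 to A5. Parental cells were the highest B16F10 array for it.

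Between parental cells and the PECAM1+ clones the median difference was 0.08. Of the 38 differences 26 were positive, where 10069 of all 19938 were. None of the 38 genes passed in that fit, where 2 of all genes did (0.0100%), and 1 had an unadjusted p below 0.05, against 13.5% of all genes. Parental cells lay above all 4 clones for 10 genes and below all 4 for 3, where the shares of all genes were 22.1% and 20.6%. The largest differences were those of Tsr1, a late small-subunit factor, at 0.49 ± 0.21, Rrp12 at 0.46 ± 0.11, Noc3l at 0.33 ± 0.13 and Polr1a at 0.32 ± 0.21 (limma adjusted p from 0.229 to 0.667). Tsr1 was at 9.68 in parental cells and 9.39, 9.26, 8.90 and 9.20 in A2 to A5. Myc differed by 0.05 ± 0.15.

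The comparison by PECAM1 status asked whether these genes follow the label. None of the 38 passed, where 2 of all genes did (0.0100%), and 2, Bop1 and Utp20, had an unadjusted p below 0.05, against 9.18% of all genes. The median of PECAM1+ minus PECAM1- was 0.30, with 32 of 38 positive, where 10139 of all 19938 genes were. The largest differences were those of Dkc1 at 0.79 ± 0.49, Bop1 at 0.75 ± 0.28, Nhp2 at 0.75 ± 0.38 and Fbl at 0.66 ± 0.33 (limma adjusted p from 0.521 to 0.546). The PECAM1- samples lay far apart, with an SD of 1.27 (n = 2) for Dkc1 against 0.19 (n = 4) in the PECAM1+ clones. Without clone A1 the difference of Dkc1 turned to -0.11. Without parental cells, the comparison is that of clone A1 alone with the clones, described above beside the shares of all genes. All 4 PECAM1+ clones were above both PECAM1- samples for Nop58, Bop1 and Utp20 (7.73% of all genes) and below both for 0 genes (8.68%). Utp20 was at 7.84 in clone A1, 8.32 in parental cells and 8.69, 8.67, 8.47 and 8.64 in A2 to A5, a difference of 0.53 ± 0.16 that did not pass (limma adjusted p = 0.436).

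The PECAM1+ clones were not alike for these genes. Clone A4 was the lowest of the 4 for 28 of the 38 genes (73.7%), against 30.7% of all genes, and clone A2 the highest for 24 (63.2%), against 34.5%. The median difference of A4 from the other 3 clones was -0.21 and that of A2 was 0.17, while over all genes they were -0.01 and 0.00. Bright probe sets had the same order, however. The upper quartile over all probe sets was lowest of the 4 clones in A4 (8.28) and highest in A2 (8.35). Of the 38 genes, 37 were above the median level, and whether the order is particular to these genes was not tested. No test was made of these orders, as each clone is 1 array. The median SD between the clones was 0.14 for these genes and 0.10 for all genes. Bop1 ran the other way, with its highest value in A4. An identical value in a pair of clones, which can make a spread too small, occurred for 1 of the 38 genes and for 36.6% of all genes.

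MDEC were compared with B16F10 by a rule of size, as there was 1 MDEC array. Relative to the mean of the 2 B16F10 group means, 0 of the 38 genes were at least 2-fold lower and below all 6 B16F10 arrays (6.86% of all genes), and 0 were at least 2-fold higher and above all 6 (6.40%). By that reference Dkc1 was at -1.13 but above clone A1, and no other gene of the set reached 2-fold lower. Relative to the 5 B16F10 arrays without clone A1, 5 genes were at least 2-fold lower and below all of them (8.00% of all genes) and 0 at least 2-fold higher and above (6.85%). These 5 were Dkc1 (-1.55), Nhp2 (-1.22), Bop1 (-1.16), Rrp1b (-1.11) and Polr1b (-1.01). Without regard to size, MDEC lay below those 5 arrays for 19 of the 38 genes (31.6% of all genes) and above them for 4 (31.1%). Against all 6 B16F10 arrays, the counts were 6 below (26.3%) and 4 above (26.5%).

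The genes above the B16F10 arrays in MDEC were Mycn, Noc3l, Utp20 and Rrp12, which lay 0.74, 0.65, 0.50 and 0.46 log2 units above the mean of the group means. Noc3l, a factor of early large-subunit assembly, was at 9.30 in MDEC and between 8.42 and 8.91 in B16F10. The next highest were Gar1 (0.40) and Nop56 (0.19), both inside the B16F10 range. On the lower side by the same reference were Dkc1 (-1.13), Nhp2 (-0.86), Bop1 (-0.84), Polr1b (-0.81), Rrp1b (-0.80) and Nip7 (-0.71). Box H/ACA subunits differed among themselves in MDEC, since Dkc1 and Nhp2 were low while Gar1, at 10.54, was level with parental cells. Box C/D genes Nop56 and Rrp9, at 11.50 and 8.64, lay within the range of the other B16F10 arrays, where clone A1 did not. Fbl and Nop58, at 9.74 and 9.21 in MDEC, lay below the lowest of those arrays (9.90 and 9.62). MDEC and clone A1 differ in cell type, medium and cell cycle gene levels, so these causes cannot be told apart.

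**Figure D5:**
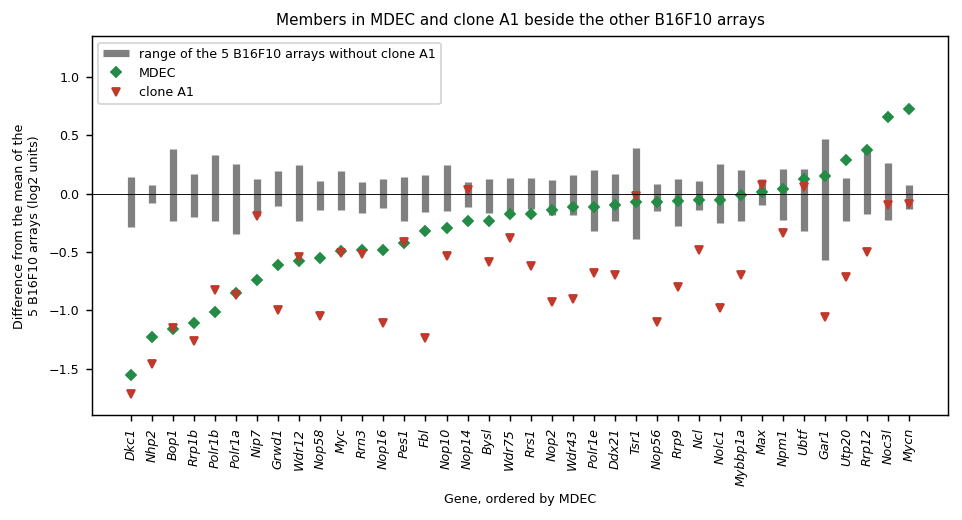
Difference of MDEC (diamonds) and clone A1 (triangles) from the mean of parental cells and clones A2 to A5 (y axis, log2 units) for each of the 38 genes (x axis, ordered by MDEC); grey bars span those 5 arrays. MDEC run from -1.55 for Dkc1 to 0.73 for Mycn, and clone A1 lies below the bar for 32 genes.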

How the data were processed

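Total RNA of 7 samples was hybridised to Affymetrix Mouse Gene 1.0 ST arrays. The authors deposited 1 log2 expression value per probe set and array. Partek is the tool that the submitters' processing notes list. The summarisation, normalization and build are not given in the sources used. The log2 scale was read from the values, and without detection calls the signal over background is not known. Probe sets were named from the platform annotation (21789 of 35557 had 1 symbol), and the probe set with the highest mean stood for a gene, which left 19938. The number of arrays limits the precision.

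Comparisons used the limma package (version 3.58.1, R version 4.3.3; lmFit and eBayes with trend, two-sided), fitted across all genes with Benjamini-Hochberg adjustment and a threshold of 0.05. The fits were also run on simulated data. Every simulated array was drawn with the spread of the PECAM1+ clones, so this run cannot show whether a lone array varies like them. A lone array took the spread of the PECAM1+ clones. For MDEC a 2-fold rule of size was used. Values were printed in full for the MYC family and for the 12 called genes with the largest difference. In each other list the 4 genes with the largest absolute difference of clone A1 were named, for other comparisons the 4 largest, and for MDEC the 6 highest and 6 lowest. Other genes named were chosen after their values were seen. The genes and lists were chosen with earlier results of these data known. Sequences are from RefSeq.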

Additional observations from a re-analysis of the deposited data

Results flagged for a closer look

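Among the 4 PECAM1+ clones, Bop1 in clone A4 stood apart from the other clones. Its log2 value was 11.02, and the gap to the next clone was 0.846 of the whole range of the 4 clones. Chance sets about 1 in 20 groups apart in this way, and 38 genes were examined. For 28 of the 38 genes clone A4 was the lowest clone.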

How the results depend on the processing

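The number of genes passing as lower in clone A1, 15 as reported, was 25 with quantile normalization (9.74% of all genes) and 26 with dim genes left out (16.5%), and ran from 4 (without clone A3 or without clone A5) to 18 when 1 PECAM1+ clone was left out. In the 13 settings run for clone A1, including the reported one, 34 of 38 genes kept their direction, 27 passed in at least 1 setting, and 4 (Nhp2, Nop16, Nop56 and Nop58) passed in every one. These counts over settings were not made for all genes, so there is no share to set them against. The directions that turned did not pass. Near 0 were Nop14 with quantile normalization (-0.0095) and without clone A4 (-0.0109) and Noc3l without clone A2 (0.0018). Also near 0 was Tsr1 without clone A4 (-0.0225) and against the other 5 B16F10 arrays (-0.0234). Against parental cells Tsr1 turned to -0.41 and Ubtf to -0.12. No gene of the set passed between parental cells and clones in any setting run. By PECAM1 status, the number passing as higher depended on which sample was left out. The fit without parental cells is that of clone A1 alone with the clones, described above. Without clone A1, Dkc1 turned to -0.11. For MDEC, the number at least 2-fold lower was 5 with the reference without clone A1, and Nop56 turned to -0.0708 there. The share of windows with the E-box, 20.9%, was 48.8% with CACGCG counted as well (15.4% of all windows) and 4.65% before the start alone. The samples of the groups share no replicate numbers in the labels, so no block was fitted. Each difference from a lone array rests on that array.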
